A study of Mus musculus with 16 samples.

Results

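Mineral oil and saline were the vehicles of a pair of treatment experiments in mouse liver, and the livers that had received one or the other are compared here. They account for 8 of the 16 arrays of the study: 4 oil livers (2 wild-type, 2 knockout) and 4 saline livers (2 wild-type, 2 knockout), chosen by the agent in the labels, with genotype held as a block. All mice were FVB males aged 10 weeks. Wild-type mice are labelled as such, and the knockout mice are labelled LKB1 lox/lox and described as a liver-specific knockout of LKB (gene symbol Stk11), the kinase that activates AMPK. The labels used here do not name the Cre driver. The other 8 livers received CCl4, a hepatotoxicant usually dissolved in oil, or AICAR, an AMPK activator usually dissolved in saline. Because each vehicle was used in one experiment, vehicle and experiment (day, hour of killing, route, feeding, array run) cannot be told apart, and doses and times were not known here.

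Liver mRNA of untreated mice varies with the hour of the day, since clock repressors and activators drive each other and many metabolic genes through the day. It also varies with feeding, which moves gluconeogenic and lipid genes, and with handling stress, whose glucocorticoids induce metallothioneins and some immediate early genes. Injected mineral oil is an inert hydrocarbon mixture that macrophages of the peritoneal cavity and the liver can take up. The gene groups below were read with that background in mind, as descriptions of what differed between the vehicle groups.

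The promoters of 3 genes that the results return to are shown first, as 300-base windows from 250 bases before to 50 bases after the RefSeq transcription start (build GRCm38.p6). Nr1d1 encodes the clock repressor REV-ERBα (window chr11:98775328-98775627, minus strand), Plin4 a perilipin that coats lipid droplets (chr17:56109733-56110032, minus strand), and Mt1 the metal-binding protein metallothionein 1 (chr8:94178839-94179138, plus strand). Capitals mark matches, on either strand, to TGCGCNC or TGCACNC, the core of the metal response element.
Nr1d1: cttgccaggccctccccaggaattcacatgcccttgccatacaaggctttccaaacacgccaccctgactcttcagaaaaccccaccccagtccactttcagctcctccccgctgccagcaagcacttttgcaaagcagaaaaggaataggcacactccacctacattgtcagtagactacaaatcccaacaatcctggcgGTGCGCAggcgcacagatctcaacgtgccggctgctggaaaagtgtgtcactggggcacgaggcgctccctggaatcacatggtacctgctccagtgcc
Plin4: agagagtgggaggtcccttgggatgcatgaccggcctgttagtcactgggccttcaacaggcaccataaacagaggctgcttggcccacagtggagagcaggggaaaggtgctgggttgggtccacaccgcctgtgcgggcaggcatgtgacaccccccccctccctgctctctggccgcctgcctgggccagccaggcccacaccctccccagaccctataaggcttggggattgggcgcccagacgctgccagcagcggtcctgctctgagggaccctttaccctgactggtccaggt
Mt1: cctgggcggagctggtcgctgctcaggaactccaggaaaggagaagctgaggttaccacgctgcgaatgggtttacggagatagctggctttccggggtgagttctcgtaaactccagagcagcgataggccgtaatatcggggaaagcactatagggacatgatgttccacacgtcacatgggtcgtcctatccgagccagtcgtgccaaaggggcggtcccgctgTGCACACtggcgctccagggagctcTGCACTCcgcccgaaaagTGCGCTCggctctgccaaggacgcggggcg
Mt1 held 3 matches, Nr1d1 held 1 and Plin4 held 0. Of the 32851 promoter windows in the RefSeq table, 25.7% held at least 1 match to either core. The E-box CACGTG, bound by clock activators and present in 7.15% of windows, was in 0 of the 3, and so was the nuclear receptor half-site AGGTCA (16.3% of windows). No match says only that these letters are not in this window.

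Depth and labels were checked on the vehicle arrays. The median deposited signal was 192.1 to 213.7 on the oil arrays and 172.4 to 186.6 on the saline arrays, and 12233 to 13150 and 12958 to 13358 of 25697 probes were detected. The background inferred from the detection p-values averaged 158 to 168 signal units on the oil arrays and 144 to 151 on the saline arrays, without overlap. On the CCl4 arrays it was 153 to 164 and on the AICAR arrays 148 to 153. Stk11 ran from 10.20 to 10.38 in the 4 wild-type vehicle livers (normalized log2 signal, the scale of all levels below). In the knockout ones it ran from 9.03 to 9.30, lower as labelled. Where its probe lies relative to the deleted part is not known here. Hepatocyte markers such as Apoa1 and Ttr were among the brightest features. The Alb probe was dim on these arrays (lowest value 5.38). The 2 knockout saline arrays differed by no more than noise. Where a gene had a pair of probes (1904 pairs), the probes' differences between these arrays had r = 0.011 (95% interval -0.034 to 0.056), against at least 0.471 in the other 119 array pairs. They were averaged and counted as 1 sample, which leaves 4 oil and 3 saline samples and no spread within the knockout saline group. No label ties an array to a particular animal, although replicates are called biological, so each p-value reflects sample-to-sample spread that may be technical in part.

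The main comparison asked which liver genes differed between the vehicles. No gene passed: limma, with Benjamini-Hochberg adjustment over all 11338 features, called 0 (0%). At an unadjusted p under 0.05 there were 1177 features, where 567 would arise by chance alone. Of these, 681 were higher in oil (6.01% of those tested) and 496 were lower (4.37%). The smallest adjusted p was 0.0654, shared by 8 features, and 12 had an adjusted p under 0.1. The result rested on how the knockout saline arrays were counted. With both as separate samples, limma called 60 features, 49 higher and 11 lower in oil. Keeping only knockout saline replicate 1 gave 9, 7 of them higher, whereas keeping only replicate 2 gave 0. Leaving out knockout oil replicate 1 gave 1 call. Of those 60, 47 were detected on 5 or fewer of the 8 vehicle arrays. The values below are therefore a description of genes that were not called, and higher and lower refer to fitted means.

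Small p-values were concentrated among dim probes. Split by mean signal into 10 equal bins, the 2 dimmest held 156 and 168 features higher in oil at p under 0.05, and 73 and 98 lower, which made up 20.2% and 23.5% of those bins. In the brightest bin 17 were higher and 27 were lower (3.88%). Among the 100 features with the smallest p that were higher in oil, 60 were not detected on any saline array, against 651 of all 11338. Among the 100 that were lower in oil, 35 were not detected on any oil array, against 776 of all 11338. A feature needed detection on 2 or more arrays of any group, and the arrays of both vehicles counted. Features undetected in saline could therefore be kept through the oil arrays, and those undetected in oil through the saline arrays. The part of this filter in these shares and in the counts of the dim bins was not tested. The inferred background was higher on every oil array than on any saline array; its part in these differences was not tested.

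**Figure D1:**
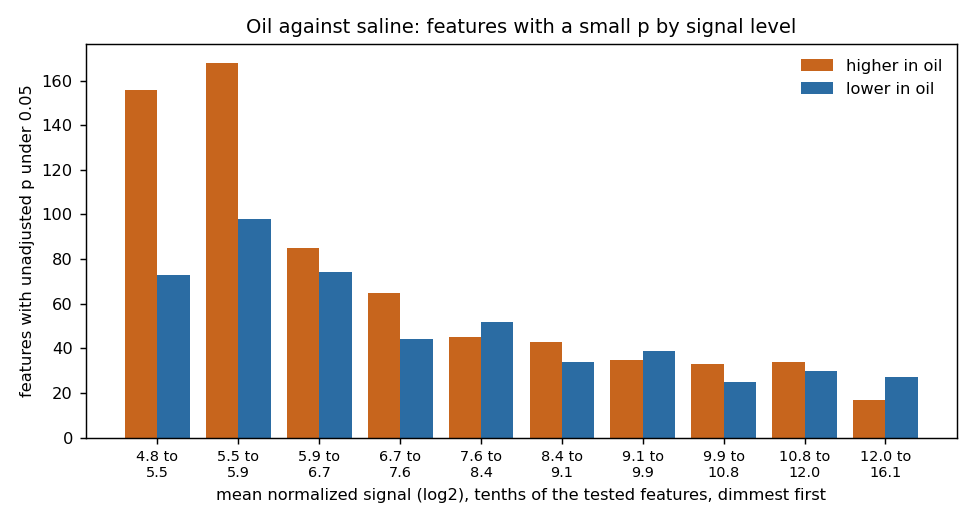
Number of features with an unadjusted p under 0.05 (vertical axis) in 10 equal bins of mean normalized log2 signal (horizontal axis), separately for features higher (orange) and lower (blue) in oil. The 2 dimmest bins held 156 and 168 features higher in oil, against 17 in the brightest.

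The 10 named genes with the smallest p among those higher in oil were Misp, Phex, Sh3gl3, Olfr497, Coro2b, Slc29a2, Hspa12a, Olfr318, Nr1d1 and Chmp4c, with adjusted p from 0.0654 to 0.139. Nr1d1 was the 1 gene of these detected on all 8 arrays, and 7 were not above background on any saline array. Misp, which positions the mitotic spindle, read 6.18 and 6.40 in wild-type oil livers and 6.71 and 6.50 in knockout oil livers. It read 5.12 and 5.10 in wild-type saline livers and 5.40 in the knockout saline sample. That 5.40 is the mean of 4.95 and 5.84 on its 2 arrays, a gap that the SE does not include. All 4 oil values lay above all saline values, and the difference was 1.19 ± 0.16 log2 units (SE; limma adjusted p = 0.0654). Misp was detected on 1 of 4 saline arrays, so the difference is set against values mostly at background. The same holds for Olfr497, an olfactory receptor gene detected on 1 of 4 saline arrays, which gave 1.37 ± 0.21 (limma adjusted p = 0.0654). Its 2 knockout saline arrays read 4.77 and 6.06, a gap close in size to the difference itself.

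For the 7 genes not above background in saline, the fold is a lower bound, the oil mean over the lowest detected signal of the saline arrays. Hspa12a, an atypical member of the heat shock protein family, was at least 1.59-fold higher in oil (limma adjusted p = 0.088). Chmp4c, a subunit of the membrane-cutting ESCRT complex, was at least 1.54-fold higher (limma adjusted p = 0.139). For Olfr318 the bound was 1.41-fold, for the actin-binding coronin Coro2b 1.4-fold and for the endopeptidase Phex 1.29-fold. Sh3gl3, an endophilin, and Slc29a2, a nucleoside transporter, had bounds of 1.24-fold and 1.2-fold. Another Coro2b probe, detected on 1 of 8 vehicle arrays, gave 0.07 ± 0.16 log2 units. All these values are after background correction. Without it Hspa12a differed by 0.46 log2 units (1.37-fold), Chmp4c by 0.36 (1.29-fold) and Olfr318 by 0.39 (1.31-fold). These, Coro2b at 0.46 (1.37-fold) and Misp at 0.41 were each below the value or bound given above. Phex (1.47-fold), Sh3gl3 (1.38-fold) and Slc29a2 (1.41-fold) stayed above their bounds. In all 10 genes the oil samples lay above the saline samples within each genotype (9.66% of all features). The genes were chosen by p on the same samples, so this separation follows largely from the choice and adds no support.

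Among genes lower in oil, the 10 smallest p belonged to Plin4, Cmklr1, Fancc, Nipal4, Pcdh10, Ppp1r1b, Fbf1, Glul, Il7r and Gpr182, with adjusted p from 0.0654 to 0.191. Plin4 read 6.51, 6.02, 5.49 and 5.78 in the oil livers (2 wild-type, then 2 knockout). In saline it read 8.59 and 7.68 in the wild-type and 8.14 in the knockout. The groups did not overlap, and the difference of -2.19 ± 0.32 log2 units (limma adjusted p = 0.0654) was -1.87 ± 0.40 in the wild-type and -2.50 ± 0.50 in the knockout. Plin4 was detected on 3 of 4 oil arrays, and without background correction its difference was -1.07. Of the 20 leading genes, 19 had a difference over 1.5 times smaller without background correction, Gpr182 being the exception.

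Ppp1r1b, the phosphatase inhibitor DARPP-32, gave -1.19 ± 0.24 (limma adjusted p = 0.17). Its probes disagreed: another Ppp1r1b probe gave 0.64 ± 0.24 and the remaining one 0.34 ± 0.21. Il7r, the interleukin 7 receptor of lymphocytes, gave -0.95 ± 0.21, Fancc, of the DNA crosslink repair pathway, -0.75 ± 0.15, and Fbf1, a centriole protein, -0.77 ± 0.17. Of the 4 oil arrays, 2 detected Il7r, 2 detected Fancc and 1 detected Fbf1. Another Fancc probe gave -0.16 ± 0.16. Cmklr1, the chemerin receptor, Nipal4, a putative magnesium transporter, and the protocadherin Pcdh10 were not above background on any oil array and near it in saline, so no fold is given. The samples of 8 of the 10 genes were lower in oil in both genotypes without overlap (8.28% of all features). This too follows largely from the choice by p and adds no support. The remaining 2, Glul and Gpr182, are described below.

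**Figure D2:**
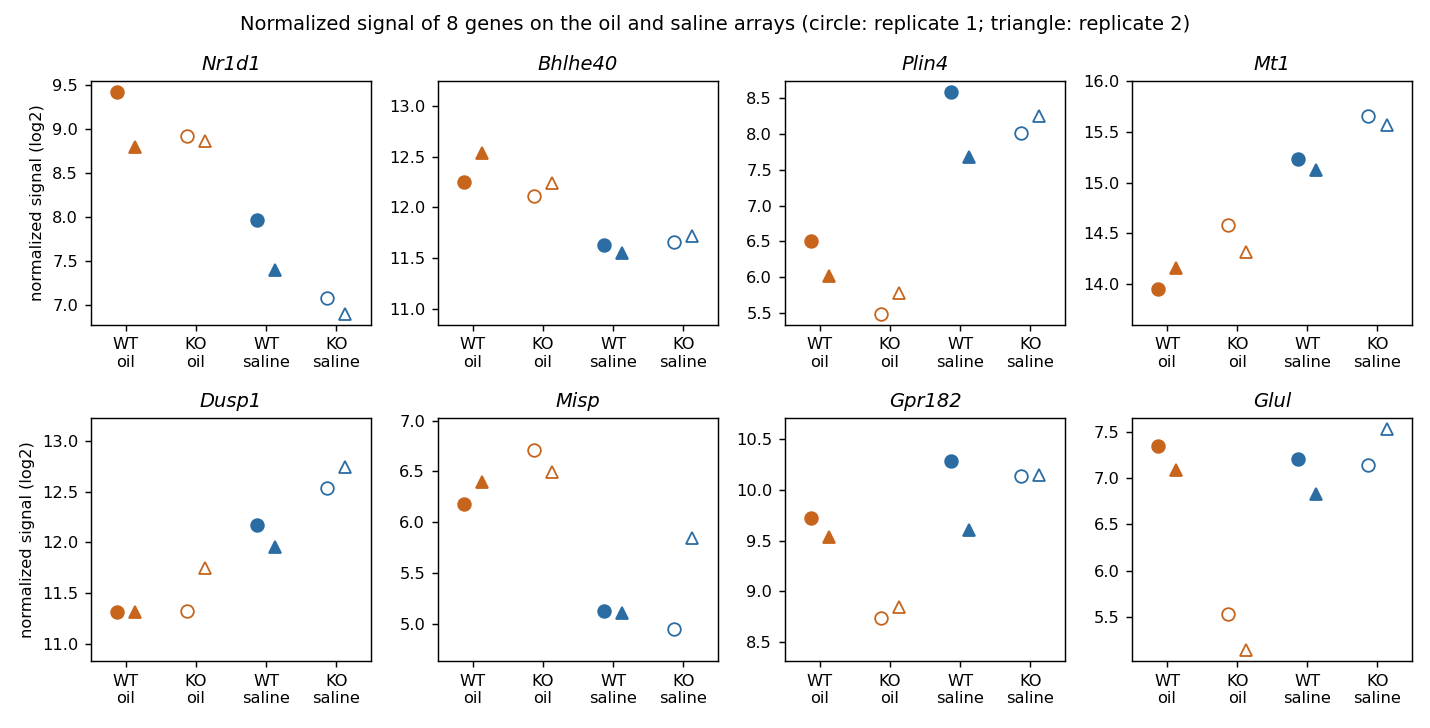
Normalized log2 signal (vertical axes) of 8 genes in each vehicle array, oil in orange and saline in blue, wild-type filled and knockout open, circles for replicate 1 and triangles for replicate 2. Nr1d1, Bhlhe40 and Misp lay higher and Plin4, Mt1 and Dusp1 lower in every oil array than in any saline array, whereas Glul was low in the 2 knockout oil arrays alone.

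Core clock genes and their direct outputs were read next, because both vehicles were given on days and at hours that are not known here. Of the 18 measured, oil was above saline in 11 and below it in 7; their median difference was 0.10 log2 units, against 0.005 for all features. That median had no stable sign: omitting knockout oil replicate 1 gave -0.07, omitting wild-type oil replicate 2 gave -0.05, and omitting wild-type oil replicate 1 gave 0.23. At an unadjusted p under 0.05, 2 were higher and 1 was lower (6.01% and 4.37% of all features), and limma called 0. Nr1d1 read 9.41 and 8.79 in wild-type oil, 8.92 and 8.86 in knockout oil, 7.96 and 7.40 in wild-type saline, and 6.99 in knockout saline. The groups did not overlap, and the difference was 1.66 ± 0.28 log2 units (limma adjusted p = 0.098), 1.42 ± 0.35 in the wild-type and 1.90 ± 0.43 in the knockout. Another Nr1d1 probe gave 1.67 ± 0.35, and without background correction the difference was 1.10.

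Bhlhe40, a repressor that acts on E-boxes, read 12.25, 12.54, 12.11 and 12.24 in oil against 11.63, 11.55 and 11.69 in saline. It was higher in all 4 oil samples, by 0.64 ± 0.23 (limma adjusted p = 0.351). Usp2, a deubiquitinase with a daily rhythm, was lower in all of them, by -0.92 ± 0.32 (limma adjusted p = 0.342). Knockout oil replicate 2 stood below the other oil livers in several clock outputs. The output activator Dbp read 13.93, 13.95 and 13.49 in the others and 11.99 in this one, against 13.04, 12.52 and 12.37 in saline. Per3, a clock repressor, read 7.30, 8.34 and 7.62 in the others and 5.67 in it, and Tef 10.79, 11.85 and 10.84 against 9.66. The activator Arntl, which peaks when Nr1d1 is low, ran from 6.38 to 8.20 in oil, with the highest value in the same liver, and reached at most 7.87 in saline. For the remaining members, Clock, Cry2, Per1, Per2, Nr1d2, Rora, Nfil3, Hlf, Noct, Ciart and Wee1, the limma adjusted p was 0.602 or more.

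The same clock genes can be read in arrays that share no liver with the vehicle groups, by setting CCl4 livers (the oil experiment) against AICAR livers (the saline experiment). That comparison also holds the effects of both agents. Limma called 398 features in it, 162 higher (1.43%) and 236 lower (2.08%) after CCl4. Nr1d1 was again higher, by 1.21 ± 0.25 (limma adjusted p = 0.0276). Arntl rose by 1.27 ± 0.27 (limma adjusted p = 0.0328), while it gave -0.39 ± 0.31 for oil minus saline. Cry2 fell by 0.78 (SE 0.19, limma adjusted p = 0.0484), while it gave 0.14 ± 0.21 for oil minus saline. For both genes the wild-type livers were close and the knockout livers apart. Arntl read 7.06 and 6.94 after CCl4 and 7.20 and 6.47 after AICAR in the wild-type, but 8.22 and 9.21 against 6.32 and 6.37 in the knockout. Cry2 read 8.26 and 7.97 against 8.24 and 8.22 in the wild-type, and 8.17 and 8.51 against 9.54 and 10.04 in the knockout. Nr1d1 was higher after CCl4 in both genotypes, at 8.66 and 9.06 against 7.95 and 8.35 in the wild-type and 9.63 and 8.64 against 7.62 and 7.23 in the knockout.

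Of the 10 leading genes higher in oil, all 10 had the same sign in CCl4 minus AICAR, and 2, Nr1d1 and Chmp4c, were called. Of the 10 leading genes lower in oil, 9 had the same sign and 2, Glul and Fancc, were called. Il7r was the exception, at 0.10 ± 0.19. Detection on all 8 vehicle arrays held for 1 of the 10 higher and 2 of the 10 lower genes. The inferred background was 153 to 164 on the CCl4 arrays and 148 to 153 on the AICAR arrays. Its part in the shared signs was not tested. Over all 11338 features the 2 sets of differences correlated with r = 0.285 and shared a sign in 58.4%, across genes that are not independent replicates. Over the 8018 features detected on all 16 arrays, r was 0.217 and 55% shared a sign.

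**Figure D3:**
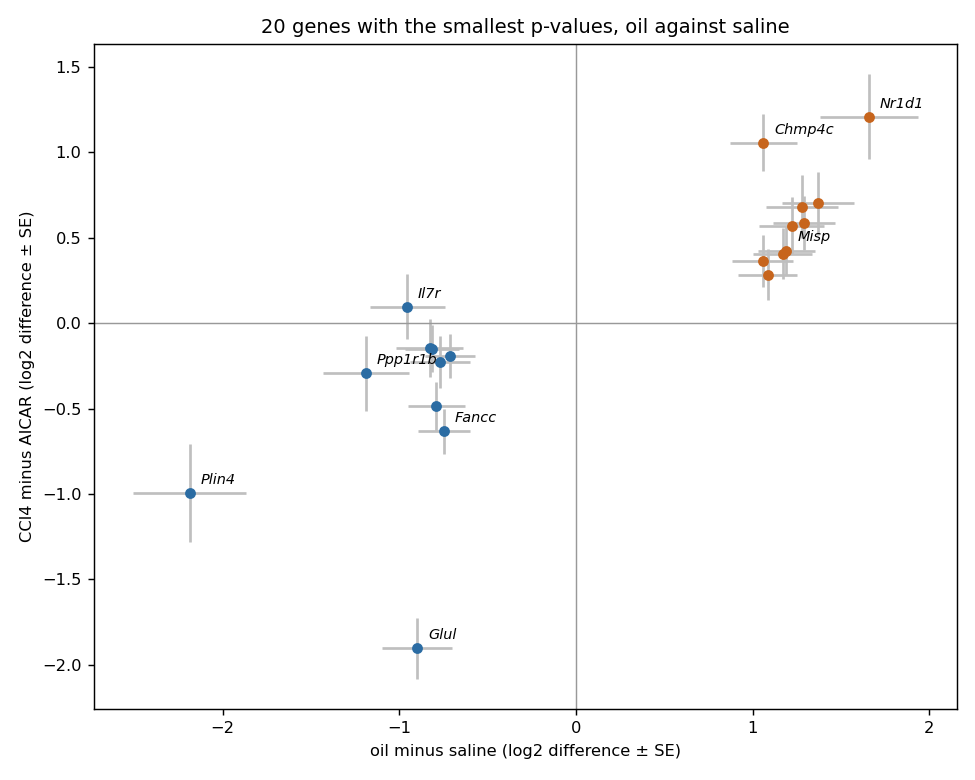
Log2 difference of CCl4 minus AICAR (vertical axis, ± SE) against oil minus saline (horizontal axis, ± SE) for the 20 genes with the smallest p for oil against saline, 10 higher (orange) and 10 lower (blue) in oil. All but Il7r lie in the quadrants of equal sign, with Nr1d1 at 1.66 and 1.21 and Glul at -0.90 and -1.90.

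Glucocorticoid-responsive genes leaned lower in oil. Of 14 measured, 11 were lower and 3 higher, with a median of -0.30 log2 units. At an unadjusted p under 0.05, 5 were lower and 0 higher, against 4.37% of all features lower. Mt1 read 13.95, 14.16, 14.58 and 14.31 in the oil livers and 15.23, 15.13 and 15.61 in saline. All oil values lay below all saline values (difference -1.14 ± 0.27, limma adjusted p = 0.191), and the genotypes gave close values (-1.12 ± 0.34 and -1.17 ± 0.42). Mt2, the partner gene of Mt1, gave -0.77 ± 0.57 with overlapping samples.

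Dusp1, a phosphatase that switches off MAP kinases, read 11.31, 11.31, 11.33 and 11.75 in oil and 12.17, 11.96 and 12.64 in saline. It was lower in all 4 oil samples (-0.93 ± 0.23, limma adjusted p = 0.211). In CCl4 minus AICAR it fell by 1.26 (limma adjusted p = 0.0113), but the wild-type livers overlapped (11.65 and 11.14 after CCl4, 11.33 and 11.13 after AICAR). The knockout livers read 11.53 and 12.36 after CCl4 and 14.45 and 14.81 after AICAR. The other members with a small p were Cdkn1a, a cell cycle inhibitor, at -0.55 ± 0.20, Fkbp5, a co-chaperone of the glucocorticoid receptor, at -1.08 ± 0.43, and Ddit4, an mTOR inhibitor, at -0.71 ± 0.29. The count of 5 dropped to 2 without wild-type oil replicate 2, and to 3 without knockout oil replicate 1 or wild-type saline replicate 1. The 21 immediate early genes were split into 9 higher and 12 lower (median -0.08). Of them, 4 had a small p, all lower (4.37% of all features), among them Dusp1, which is on both lists. Klf2, a flow-responsive factor, gave -0.85 ± 0.22. The median of the 21 changed sign without any 1 of wild-type oil replicate 2, knockout oil replicate 1 or wild-type saline replicate 2, reaching 0.19.

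Endoplasmic reticulum chaperones were higher more often, with 14 of 19 higher in oil, 4 of them without overlap in either genotype (9.66% of all features), and a median of 0.13. In the knockout 17 of 19 were higher (median 0.35) and in the wild-type 9 of 19 (median -0.05), a difference that was not tested for the list. The overall median was 0.06 without wild-type saline replicate 1. Hspa5, the chaperone BiP, gave 0.61 ± 0.21 (limma adjusted p = 0.341) and its co-chaperone Dnajb9 gave 0.60 ± 0.22. In CCl4 minus AICAR both fell, by 1.02 (limma adjusted p = 0.0182) and 0.94 (limma adjusted p = 0.0304). Of 14 NRF2 targets, which encode antioxidant enzymes, 12 were higher in oil with a median of 0.38 (0.23 without knockout oil replicate 2), but 0 had a small p. The 2 smallest belonged to the glutathione transferase Gsta1 (0.76 ± 0.52) and to Nfe2l2 itself (0.37 ± 0.25).

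Fuel and lipid genes were read by list. Of 17 lipid droplet and lipolysis genes, 12 were lower and 5 higher, with a median of -0.13. Besides Plin4, Lipe, the hormone-sensitive lipase, gave 0.68 ± 0.17 (limma adjusted p = 0.208), and another Lipe probe gave -0.38 ± 0.21. Plin2, the main perilipin of hepatocytes, gave -0.17 ± 0.34. Of 15 lipogenesis genes 7 were higher and 8 lower. Gpam, which starts glycerolipid synthesis, gave 0.95 ± 0.29. Lpin1, the phosphatidate phosphatase of the same route, read 8.11, 9.16, 8.84 and 8.12 in oil and 10.89, 8.77 and 11.06 in saline. Wild-type saline replicate 2 overlapped the oil livers, and the difference was -1.89 ± 0.64 (limma adjusted p = 0.335). In CCl4 minus AICAR Lpin1 fell by 2.85 (limma adjusted p = 0.0245), with wild-type livers that overlapped (9.28 and 7.48 against 8.95 and 10.89) and knockout livers that did not (8.50 and 8.96 against 12.70 and 13.06). The lipogenic enzymes Fasn (0.58 ± 0.35) and Scd1 (-0.39 ± 0.33) overlapped between vehicles.

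The gluconeogenic enzymes G6pc and Pck1 gave -1.01 ± 0.45 and -0.88 ± 0.48 with overlapping samples, and the list of 16 was split into 9 higher and 7 lower. Its 2 smallest p belonged to Crtc2, a coactivator of the fasting response, and to Got1, an aspartate aminotransferase (-0.83 ± 0.32). After background correction Crtc2 was at least 1.93-fold higher in oil (not above background in saline, limma adjusted p = 0.191). Among the alternative fits its difference went as low as 0.49 log2 units, below that bound. Cyp7a1, the rate-limiting enzyme of bile acid synthesis, ran from 9.84 to 13.93 in oil and from 12.08 to 13.32 in saline. Abcc2, which exports conjugated bile pigments, was higher in all oil samples (0.82 ± 0.17, limma adjusted p = 0.18). Cyp2e1, which metabolises ethanol and CCl4, gave -0.14 ± 0.38. Cyp4a14, a target of the fatty acid receptor PPARα, gave 0.63 ± 0.93. The acute phase genes Saa1 (-0.00 ± 0.50) and Lcn2 (0.19 ± 0.49) and the iron hormone Hamp (-0.00 ± 0.13) had samples that overlapped.

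Cholesterol synthesis genes differed among the oil livers. Of 18 measured members, 15 were higher and 3 lower in oil, with a median of 0.40. At a small p 2 were higher (6.01% of all features), Mvd (1.23 ± 0.47) and Lss (1.01 ± 0.46), both enzymes of the pathway. The squalene epoxidase Sqle read 10.45 and 12.07 in the wild-type oil livers, 11.56 and 10.61 in the knockout oil livers, and 10.05, 10.37 and 10.17 in saline. Insig1, the sterol sensor that restrains the pathway, read 10.48, 12.51, 12.23 and 10.91 in oil and 10.69, 10.65 and 10.62 in saline. So wild-type oil replicate 2 and knockout oil replicate 1 were high, and the other 2 oil livers were near saline. All 18 members were higher in wild-type oil replicate 2 than in replicate 1 (48.7% of all features), with a median gap of 1.60. All 18 were higher in knockout oil replicate 1 than in replicate 2 (51.8% of all features), with a median gap of 1.08. Other lists shared this split with smaller gaps. Lipogenesis genes had 14 of 15 higher in each pair (gaps 0.85 and 0.65). Clock genes had 17 and 14 of 18 (0.54 and 0.52), and bile acid genes 15 and 11 of 16 (0.77 and 0.36). The median for oil minus saline was 0.10 without wild-type oil replicate 2 and 0.08 without knockout oil replicate 1. It was 0.84 without wild-type oil replicate 1 and 0.72 without knockout oil replicate 2.

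Lymphocyte, Kupffer cell and stellate cell markers ran the opposite way in the same oil livers. In wild-type oil replicate 2, 1 of 12 lymphocyte markers exceeded its level in replicate 1, as did 2 of 18 Kupffer cell and macrophage markers and 0 of 26 of stellate cells and fibroblasts. Knockout oil replicate 1 had 1, 0 and 2 of them higher than replicate 2. The median gaps were -1.59, -0.71 and -0.64 in the wild-type and -1.01, -1.22 and -0.98 in the knockout. Between the 2 wild-type saline livers 4 lymphocyte, 10 Kupffer cell and 22 stellate cell markers were higher in replicate 2, with median gaps of -0.07, 0.05 and 0.36. Of the other cell markers, some ran the same way between the oil replicates. Cholangiocyte markers had median gaps of -0.41 and -0.39, and the 5 erythroid markers -0.47 and -0.28. Sinusoidal endothelial markers did not follow, with median gaps of -0.12 and 0.02. Neutrophil markers had gaps of -0.40 in the wild-type pair and 0.88 in the knockout pair, with 9 of 12 higher in knockout oil replicate 1. The SD of the log2 difference between replicates, over 4709 bright features, was 0.57 for the wild-type oil pair and 0.49 for the knockout oil pair, against 0.30 for the wild-type saline pair. Whether these gaps come from the animals, the pieces of liver taken or the RNA was not tested.

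**Figure D4:**
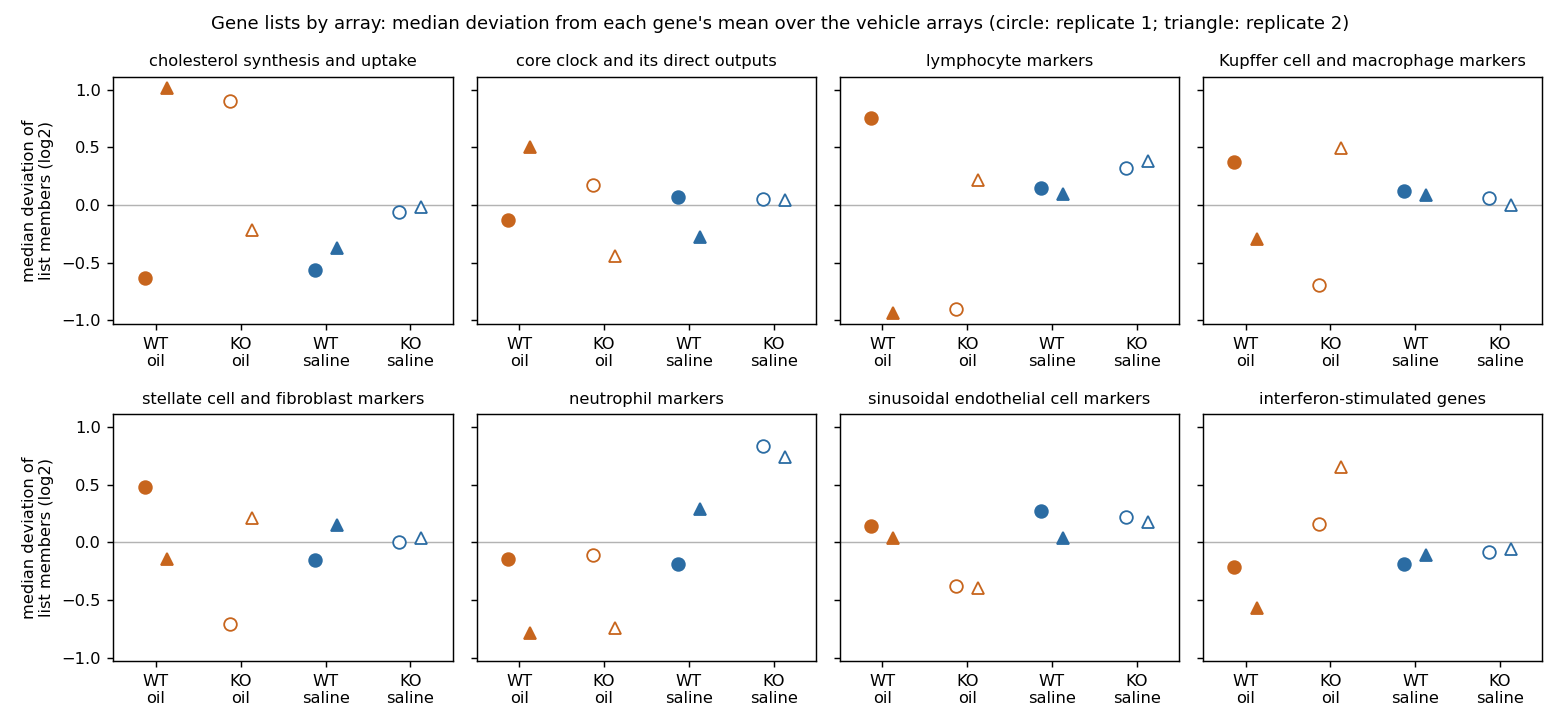
Median deviation of the measured members of 8 gene lists from each gene's mean over the vehicle arrays (vertical axes, log2) on each vehicle array, with symbols for vehicle, genotype and replicate (oil orange, saline blue, knockout open, circles replicate 1, triangles replicate 2). Cholesterol synthesis is high on wild-type oil replicate 2 (1.01) and knockout oil replicate 1 (0.91), where lymphocyte markers are low (-0.94 and -0.90).

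Sinusoidal endothelial markers leaned lower in oil. Of 24 measured markers of these fenestrated liver capillary cells, 17 were lower and 7 higher, with a median of -0.33. At an unadjusted p under 0.05, 8 were lower and 0 higher, and 7 were lower without overlap in either genotype, against 4.37% and 8.28% of all features; limma called 0. In bulk liver, fewer cells of a type and less RNA per cell cannot be told apart. With each array left out in turn, between 7 and 10 were lower at a small p. The summed linear signal of the 24 markers was 14130 to 24270 on the oil arrays and 24460 to 28500 on the saline arrays; of the list, Bmp2 had no probe above background.

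Gpr182, an endothelial receptor, read 9.73 and 9.54 in wild-type oil, 8.74 and 8.85 in knockout oil, 10.28 and 9.61 in wild-type saline, and 10.14 in knockout saline. The knockout oil livers were the lowest, and wild-type oil and saline overlapped. Another Gpr182 probe gave -1.05 ± 0.19. The difference was -0.83 ± 0.19 over both genotypes (limma adjusted p = 0.191). Its wild-type part was -0.31 ± 0.24 and its knockout part -1.35 ± 0.29. Fcgr2b, the capillary Fc receptor, read 10.55, 10.45, 9.77 and 9.51 in oil and 10.87, 10.90 and 10.63 in saline, and gave -0.68 ± 0.17. The junction protein Pecam1 gave -0.60 ± 0.16 and the lectin Clec4g gave -0.62 ± 0.20. In the knockout 22 of the 24 were lower, 9 at a small p (3.15% of all features), with a median of -0.57. In the wild-type 15 were lower, 1 at a small p (3.8% of all features), with a median of -0.08. The difference between genotypes was not called for any of them. Stab2 and Mrc1, scavenger receptors of the same cells, gave 0.03 and -0.04 over both genotypes. In CCl4 minus AICAR the list's median was -0.06.

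Neutrophil granule genes also leaned lower in oil. Of 12 measured markers 9 were lower and 3 higher, with a median of -0.91 (wild-type -0.50, knockout -1.09). At a small p 6 were lower, against 4.37% of all features. The protease gene Elane gave -0.88 ± 0.29 (limma adjusted p = 0.327). Ngp, a granule protein, read 5.91, 6.02, 7.14 and 5.38 in oil and 6.87, 7.74 and 8.24 in saline. The livers of each genotype were separate, but knockout oil replicate 1 reached into the wild-type saline range. The 5.38 of knockout oil replicate 2 lay below the lowest detected value on that array (5.67). The wild-type oil values lay near the lowest detected values on theirs (5.65 and 5.77). The count of 6 dropped to 1 without knockout oil replicate 2 or wild-type saline replicate 2. It was 2 without wild-type oil replicate 2 and 4 without wild-type saline replicate 1. Without background correction the median was -0.49. The summed signal of the 12, which is dominated by brighter genes such as Lcn2, overlapped (13210 to 49380 in oil, 22050 to 34500 in saline).

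Lymphocyte markers gave a median of -0.52, with 11 of 12 lower. At a small p 1 was lower (4.37% of all features), the natural killer cell receptor Klrd1 (-0.85 ± 0.34), followed by Nkg7 (-0.81 ± 0.39). Without wild-type oil replicate 2 the median was -0.04 and without knockout oil replicate 1 it was -0.24, but without wild-type oil replicate 1 it was -0.91 with 7 at a small p. The summed signal was 3437 to 10750 in oil and 7499 to 8262 in saline. Kupffer cell and macrophage markers had a median of -0.19 with 0 at a small p. It was 0.11 without knockout oil replicate 1, 0.06 without wild-type oil replicate 2 and -0.46 without knockout oil replicate 2; Folr2 gave -0.48 ± 0.33 and Lyz1 -0.33 ± 0.29. Their summed signal, 48380 to 98610 in oil and 76880 to 86890 in saline, overlapped. Stellate cell and fibroblast markers were split into 13 higher and 13 lower (median 0.01, from -0.29 to 0.16 with 1 knockout oil array left out; Sparc -0.69 ± 0.35, Col14a1 -0.33 ± 0.20). Hepatocyte markers had a median of -0.04, with 3 higher and 9 lower.

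The next comparison asked whether the vehicle difference depended on genotype. The vehicle difference in the knockout minus that in the wild-type was called by limma for 0 features, with 478 at an unadjusted p under 0.05 against 567 by chance, and a smallest adjusted p of 0.78. Single genotypes gave 0 calls each, with 971 features at an unadjusted p under 0.05 in the wild-type and 764 in the knockout. With both knockout saline arrays counted as samples the knockout gave 13 calls. The 2 genotypes' differences correlated with r = 0.215 across the 11338 features and with r = 0.130 across those detected on all 16 arrays, where 53.6% shared a sign.

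Glul, the glutamine synthetase of the hepatocytes around the central vein, was next to the smallest p for that difference. It read 7.35 and 7.09 in wild-type oil, 7.21 and 6.82 in wild-type saline, and 7.34 in knockout saline, but 5.54 and 5.14 in knockout oil, where it was not above background. Only the knockout oil livers were low, and in the knockout Glul was at least 2.90-fold lower in oil after background correction. Without that correction the Glul difference over both genotypes was -0.34, against -0.90 with it. The vehicle difference was 0.20 ± 0.25 in the wild-type, and the test of the difference between genotypes, which rests in part on values below background, did not pass (limma adjusted p = 0.78). In CCl4 minus AICAR, over both genotypes, Glul fell by 1.90 (limma adjusted p = 0.00104), from 7.30 to 7.61 in the AICAR livers to 4.85 to 5.98 in the CCl4 livers, where the knockout values again lay below the detected range. The list of 23 pericentral genes was split into 11 higher and 12 lower over both genotypes, and Slc1a4, an amino acid transporter, gave 1.51 ± 0.44. In the wild-type 15 were higher and 8 lower (median 0.20), and in the knockout 7 were higher and 16 lower (median -0.21). That difference was not tested for the list.

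The other genes with the smallest p for the genotype difference were Them7, Hjurp, H4c12 and Srprb, all with a limma adjusted p of 0.78. Them7, a thioesterase family member, read 10.60 and 10.97 in wild-type oil against 8.46 and 8.33 in wild-type saline, but 8.97 and 8.53 in knockout oil against 9.71 in knockout saline. The vehicle difference was thus 2.39 ± 0.34 in the wild-type and -0.96 ± 0.42 in the knockout. Hjurp, a chaperone of centromeric histone, gave 1.11 ± 0.21 and -0.73 ± 0.26, and the histone gene H4c12 gave 1.08 ± 0.36 and -1.69 ± 0.43. Srprb, a subunit of the signal recognition particle receptor, ran the other way, at -0.94 ± 0.25 and 1.01 ± 0.31.

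Interferon-stimulated genes had a median vehicle difference of -0.32 in the wild-type and 0.45 in the knockout, over 39 measured members. That difference was not tested for the list. At a small p 2 were lower and 0 higher in the wild-type (3.8% of all features lower). In the knockout 4 were higher and 0 lower (407 of all 11338 features higher). Mx1, an antiviral GTPase, read 6.13 and 7.05 in wild-type oil, 8.79 and 9.68 in knockout oil, and 6.13, 6.96 and 6.37 in saline. It was high in the knockout oil livers alone, by 2.86 ± 0.86 there and 0.05 ± 0.70 in the wild-type, a difference of 2.81 ± 1.11 that was not called (limma adjusted p = 0.996). The RNA sensor gene Ddx58 gave 1.11 ± 0.36 in the knockout and 0.09 ± 0.30 in the wild-type. Over both genotypes the list's median was 0.16, and it was -0.00 without knockout oil replicate 2. Of 20 genes of antigen presentation 16 were lower in oil, with a median of -0.30 (-0.57 in the knockout, -0.01 in the wild-type; -0.05 over both without wild-type oil replicate 2). H2-T23, a nonclassical class I gene, gave -0.69 ± 0.20, and H2-Q10 gave -0.75 ± 0.32.

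Across all 42 lists, medians for oil minus saline ran from -0.91 for neutrophil markers to 0.45 for mesothelial and serosal markers (0.19 without background correction), and 28 were within 0.2 of 0. The mesothelial list had 5 measured members. At a small p 1 was higher (6.01% of all features), Krt7, at 0.55 ± 0.19. Its next was Gpm6a, which was not above background on any vehicle array.

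**Figure D5:**
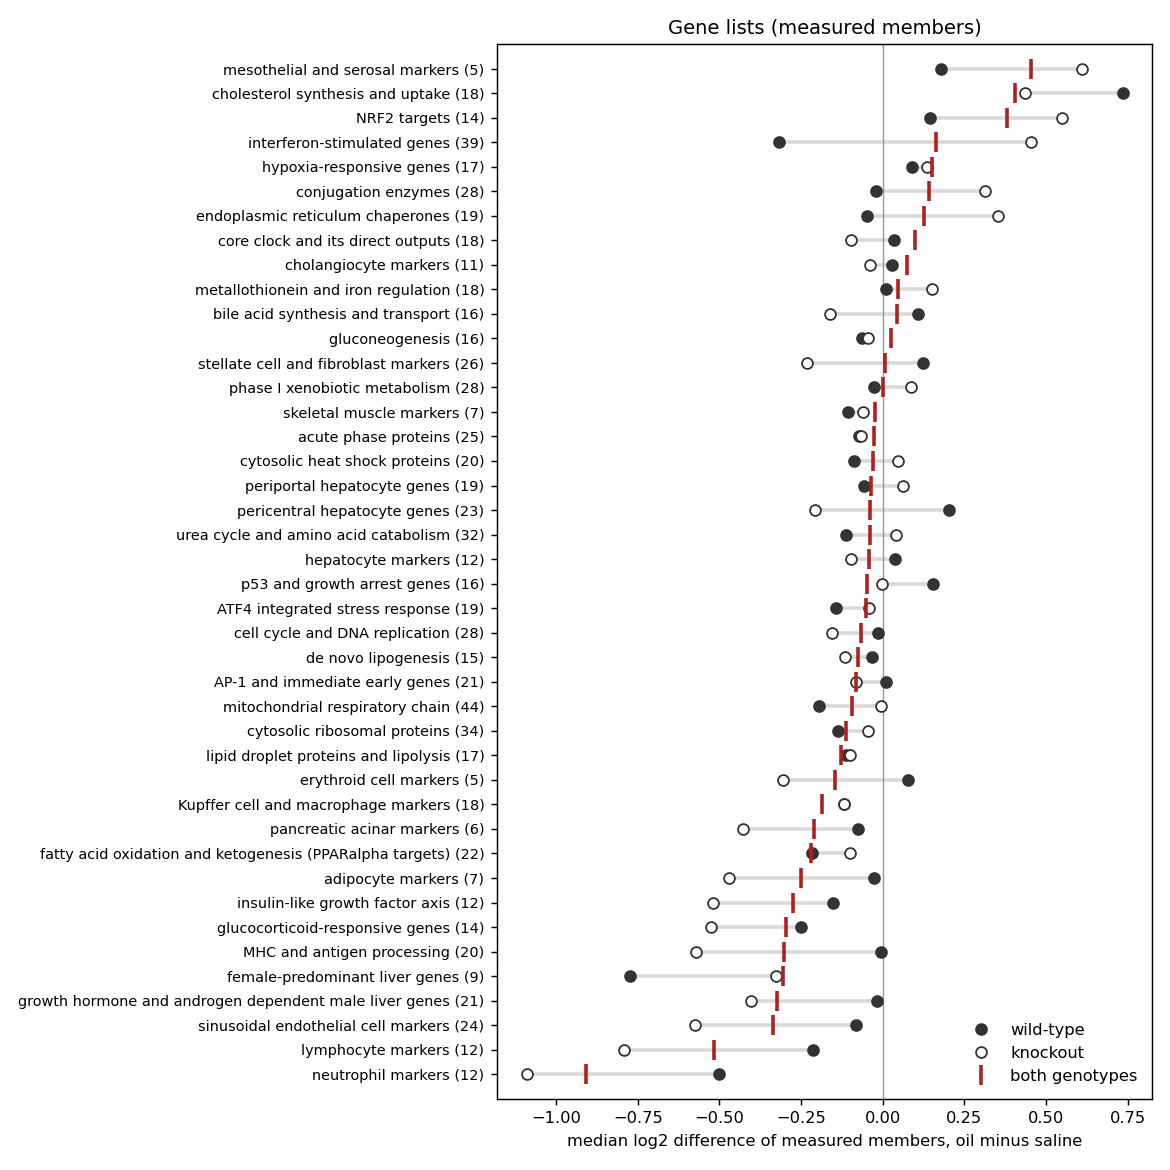
Median log2 difference, oil minus saline, of the measured members of each of 42 gene lists (horizontal axis; number of members in brackets), in the wild-type (filled), the knockout (open) and over both genotypes (red bar). Neutrophil markers lie lowest at -0.91, and interferon-stimulated genes lie on opposite sides of 0 in the wild-type (-0.32) and the knockout (0.45). Differences between genotypes were not tested for lists.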

How the data were processed

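Liver RNA had been labelled as biotinylated cRNA and hybridised to 1-colour Illumina mouse arrays, per the labels' protocols. The deposited table gives a linear probe intensity, not normalized between arrays, and a detection p-value, both made by the authors; per the submitters' processing notes, the software was GenomeStudio (no version). The authors' own normalized intensity, whose method no source used here gives, was used as an alternative.

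The deposited signals were processed with limma 3.58.1 (R 4.3.3): normexp background correction with negative controls inferred from the detection p-values (offset 16), quantile normalization, then log2. The 15411 of 25697 probes whose detection p-value fell below 0.05 on 2 or more arrays were kept, and the brightest kept probe of each gene was used. The platform annotation gave 23978 probes 1 symbol, 1719 none and 0 several, which left 11338 features, 10436 with a symbol. Named genes had 47 further probes, 11 of opposite sign, and 1 of those 11 had a small p. Group means were fitted over all 8 groups, with the knockout saline arrays averaged (15 samples, 7 residual and 3.76 prior degrees of freedom), and oil minus saline was averaged over the genotypes with equal weight. Tests were two-sided, with Benjamini-Hochberg adjustment over all features, and a small p means an unadjusted p under 0.05. The script was tested on simulated data.

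Named genes are the 10 with the smallest p in each direction (none was called), the 2 with the smallest p in each list described, the 5 with the smallest p for the genotype difference, the core clock list and a set that includes Stk11, Mt1, Mt2, Cyp7a1 and Cyp2e1. Others (Sqle, Insig1, Pecam1, Clec4g, Stab2, Mrc1, Abcc2 and the further glucocorticoid-responsive genes) were chosen after their values were seen. The lists and genes were chosen with earlier results of these data known. Counts of arrays limit the precision of every value. Alternatives changed the background correction, normalization, filters, probe choice, variance model, array weights or sample set, used replicate numbers as a block, or left out 1 vehicle array at a time. The plan was to average the knockout saline arrays if their probe pairs were uncorrelated, as they were; the fit was repeated with both counted (16 samples).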

Additional observations from a re-analysis of the deposited data

How the results depend on the processing

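Oil against saline over both genotypes gave 0 calls in 12 of 13 alternative fits and 60 with 16 samples; leaving out 1 array gave 0 to 9. Without background correction 19 of the 20 leading genes had a difference over 1.5 times smaller. The 20 leading genes kept their direction wherever they were tested, 7 of them under the stricter filter and 3 on features detected on all 16 arrays. The wild-type count of 0 was 1 without background correction and 1 in the authors' normalized values, and 0 to 1 with 1 array left out. The knockout count of 0 was 13 with 16 samples and 0 to 5 with 1 array left out, and that of the genotype difference was 0 to 2. At an unadjusted p under 0.05 the 1177 features were 666 of 8728 under the stricter filter and 612 of 8027 on features detected on all 16 arrays, an alternative chosen after seeing the data, and 1767 with 16 samples. Leaving out 1 array moved the 971 of the wild-type to between 541 and 1983 and the 478 of the genotype difference to between 364 and 1007. In CCl4 minus AICAR the 398 calls, 162 higher and 236 lower, became 171 higher and 166 lower with median centring. Replicate numbers did not pair the arrays across all groups: the correlation of same-numbered deviations was 0.542 for knockout oil with knockout CCl4 and 0.196 for knockout oil with wild-type saline, but -0.243 for wild-type oil with wild-type saline and -0.475 for wild-type oil with knockout oil. With the replicate block, 0 features were called over both genotypes (smallest adjusted p = 0.115), and with the wild-type oil numbers crossed, chosen after seeing the data, 0 were called and 1281 had a small p. Signal near background limits the dim genes, whose bins held the highest counts of small p-values. Fits that leave out a wild-type or knockout oil array have 1 sample in that group, assumed to vary like the others.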

Other observations

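Growth and stress genes outside the lists described above gave single differences, none called by limma. In the ATF4 stress response 7 of 19 genes were higher and 12 lower in oil (median -0.05, from -0.27 without knockout oil replicate 2 to 0.05 without wild-type oil replicate 2). Vldlr, a lipoprotein receptor, gave 1.03 ± 0.26 (limma adjusted p = 0.22), and Mthfd2, a mitochondrial folate enzyme, gave -0.69 ± 0.20 and fell by 1.01 in CCl4 minus AICAR (limma adjusted p = 0.0158). The knockout livers were apart, at 6.84 and 6.46 after CCl4 against 8.99 and 8.44 after AICAR, while the wild-type livers overlapped (7.17 and 6.80 against 6.85 and 7.04). Gadd45a, a growth arrest gene, read 10.28, 9.74, 10.12 and 9.98 in oil and 8.78, 9.55 and 9.26 in saline, above in all 4 oil samples (0.82 ± 0.24, limma adjusted p = 0.268).

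Of 12 genes of the insulin-like growth factor axis 9 were lower in oil (median -0.28, or -0.13 without knockout oil replicate 2). At a small p 2 were higher and 1 was lower, against 6.01% and 4.37% of all features. Igf2, a fetal growth factor, read 11.05 in knockout saline and 9.72 and 9.84 in knockout oil, against 8.29 to 8.70 in the wild-type. The transferrin receptor Tfrc read 9.29 and 10.29 in wild-type oil and 11.69 and 11.06 in knockout oil, against 9.40, 9.51 and 9.71 in saline (1.00 ± 0.26, limma adjusted p = 0.234). Of 34 ribosomal protein genes 26 were lower in oil (median -0.11, and 0.00 without wild-type oil replicate 2), with Rps2 at -0.69 ± 0.22.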
